A study of Homo sapiens with 15 samples.

Results

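The genes of chromosome 13 were followed as a group through 5 human ovarian cancer cell lines. Members were selected on their position and on their measured level: a row of the deposited expression table was kept if GENCODE v29 placed it on chromosome 13 and its level averaged 1 log2 RPKM or more across all 15 samples (RPKM is reads per kilobase of transcript, scaled to sequencing depth). The rule left out 11 genes by name, of which 7 would have passed the level. It kept 204 of the 285 chromosome 13 rows, out of 16604 genes in the table. Of the 204, 156 are protein-coding, 43 are pseudogenes and 5 are other non-coding genes. ESRRAP1 at 0.96 and RFXAP at 0.98 lay just outside the limit, and KARS1P1 at 1.03 and POGLUT2 at 1.04 just inside it. In 174 members the mean of every line was at least 1, and the other 30, 25 of them protein-coding, were under 1 in at least 1 line and passed on their level in the others.

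The starting line, OVCAR4, was established from a high-grade serous ovarian carcinoma. It is labelled Ovcar4Parental and sensitive to carboplatin and cisplatin. Ov4Cis, labelled cisplatin resistant, and Ov4Carbo, labelled carboplatin resistant, came from culture in rising amounts of the drug. Ov4Carbo4 and Ov4Carbo7, also labelled carboplatin resistant, were each grown from a single Ov4Carbo cell, so each is 1 clone. All lines were cultured in DMEM with serum, and each line has 3 samples that the series' text calls biological replicates.

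Chromosome 13 is an acrocentric chromosome, and its protein-coding genes lie on the long arm. Among them is RB1, which encodes the retinoblastoma protein, the brake on entry into S phase that binds E2F factors. TFDP1, near the far end of the arm, encodes the DNA-binding partner of those same factors. High-grade serous ovarian cancer is known for frequent gains and losses of whole chromosomes and chromosome arms. The table holds RNA levels and no measurement of DNA.

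Of the 10 tumour-type markers, 5 were high in all lines: PAX8 (5.85 to 6.74), SOX17 (6.65 to 7.76), MECOM (6.44 to 7.39), KRT8 (4.5 to 7.09) and KRT18 (6.32 to 7.53 log2 RPKM, ranges of the line means). WT1 was below -1 in every line. EPCAM, an epithelial adhesion protein, stood at 5.98 in the parental line, 1.17 in Ov4Cis, 3.01 in Ov4Carbo7 and above 5 in the other 2 lines. MUC16, which carries the CA125 antigen, was at 4.6, -1.73 and -0.21 in the same order. KRT7 was at 8.28, -0.57 and 5.48, and MSLN at 1.89, -2.29 and 1.37. In Ov4Carbo and Ov4Carbo4, MUC16 was at 3.89 and 4.26, KRT7 at 6.08 and 5.64, and MSLN at 2.71 and 0.42. The summed RPKM of the 10 tumour markers ran from 926 to 1130 in the parental samples, 497 to 608 in Ov4Cis, 558 to 637 in Ov4Carbo, 486 to 503 in Ov4Carbo7 and 675 to 740 in Ov4Carbo4. Of 6 leukocyte markers 1 was in the table, at a summed RPKM of 0.374 to 1.83. Of 6 fibroblast markers 4 were present, with LUM and PDGFRB below -1 in every line, and a summed RPKM of 4.04 to 14.6. COL1A1 stood between 2.26 and 3.63 log2 RPKM in all lines. COL1A2 was at 1.39 in the parental line and between -4.41 and -2.84 in the derived lines. Of 5 endothelial markers 3 were present. Their summed RPKM was 32.3 to 40.9 in Ov4Cis against 6.37 to 7.4 in the parental line, carried by CDH5 (5.13 against 2.46 log2 RPKM). The sum was 20.7 to 25.2 in Ov4Carbo4, with CDH5 at 4.42. It was 4.27 to 6.06 in Ov4Carbo and 8.85 to 10.3 in Ov4Carbo7. The part of these marker differences in the results was not tested.

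The level of the chromosome in each sample was expressed as a shift: the median over the members of each value minus that gene's mean over the 15 samples, minus the same median over all 12037 genes of mean at least 1. The parental samples stood at 0.226, 0.283 and 0.252 log2 units, a mean of 0.254 ± 0.028 (SD, n = 3). The Ov4Cis samples stood at -0.611, -0.555 and -0.548, a mean of -0.571 ± 0.035 (SD, n = 3). All 3 lay far below every other sample. The Ov4Carbo7 samples came next, at -0.093, -0.119 and -0.149 (mean -0.12 ± 0.028, SD, n = 3), and also overlapped no other line. Ov4Carbo4 was at 0.185, 0.197 and 0.192 (0.191 ± 0.006, SD, n = 3). Ov4Carbo spread most, at 0.103, 0.225 and 0.193 (0.173 ± 0.063, SD, n = 3). The Ov4Carbo and Ov4Carbo4 samples overlapped each other and lay below the parental samples, the highest at 0.225 beside the lowest parental sample at 0.226.

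Against the parental line the median log2 fold change of the members, relative to all genes, was -0.83 in Ov4Cis and -0.38 in Ov4Carbo7, and nearer to 0 in Ov4Carbo (-0.11) and Ov4Carbo4 (-0.08). A term for the 2 runs of numbers in the sample titles brought the last 2 to -0.05 and -0.01. In the order Ov4Cis, Ov4Carbo, Ov4Carbo4, Ov4Carbo7, these are ratios of 0.564, 0.928, 0.947 and 0.771. The SD of such a difference between single samples, pooled over the lines, was 0.052. The 4 comparisons share the parental samples. A median over neighbours on a chromosome carries no p-value here, because the members were chosen with results of these data known. In bulk RNA, fewer cells of a type and less RNA per cell cannot be told apart.

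In Ov4Cis and Ov4Carbo7 the pseudogenes stood apart from the other members. The 156 protein-coding members shifted by -0.95 in Ov4Cis (a ratio of 0.518) and -0.45 in Ov4Carbo7 (0.733), and by -0.14 and -0.07 in Ov4Carbo and Ov4Carbo4. The 43 pseudogenes shifted by -0.04, -0.07, 0.01 and -0.02 in the same order. The 5 other non-coding members shifted by -0.8, -0.8, 0.21 and -0.38, where all genes of that class shifted by 0.16, 0.08, 0.16 and 0.01. By sample, the coding members of Ov4Cis stood at -0.678, -0.669 and -0.63 and its pseudogenes at -0.074, -0.023 and -0.075.

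**Figure D1:**
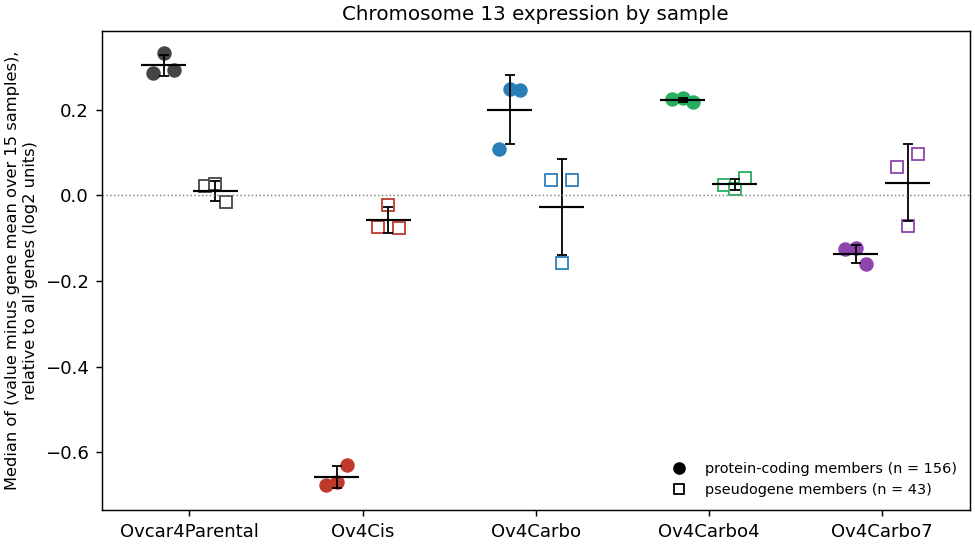
Shift of chromosome 13 in each of the 15 samples (y axis, log2 units relative to all genes of mean at least 1; x axis, cell line). Filled circles are the median of 156 protein-coding members and open squares of 43 pseudogene members, and bars give the mean and SD of 3 replicates: coding members fall to -0.659 ± 0.026 in Ov4Cis and -0.136 ± 0.021 in Ov4Carbo7 against 0.304 ± 0.025 in the parental line, while the pseudogene means lie between -0.057 and 0.03.

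In Ov4Cis the fall was broad rather than carried by a few genes. limma called 144 of the 204 members lower and 6 higher than in the parental line at an adjusted p under 0.05, against 15.6% and 17.4% of all genes of mean at least 1. The called-lower members are 70.6% of the group. Of the 156 coding members, 155 lay below the median of all genes, 137 were called lower and 1 higher, where 16.8% and 18.9% of all coding genes were called. A shift of between -1.5 and -0.5 was found in 125 coding members (80.1%). Only 12 lay below -1.5 and 19 above -0.5. Both lines of this comparison belong to the same run of numbers in the sample titles. Over all 5 lines, the moderated F-test called 181 of the 204 members (88.7%), against 76.5% of all genes.

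RB1 (ENSG00000139687) fell by about as much as the coding members as a whole. Its level was 4.70, 4.57 and 4.68 log2 RPKM in the parental samples and 3.33, 3.57 and 3.61 in Ov4Cis, a ratio of 0.453 (log2 fold change -1.14, SE 0.12, limma adjusted p = 1.16e-05). The groups did not overlap. CDK8, the kinase of the Mediator complex, fell from 2.59 ± 0.08 to 1.54 ± 0.13 (SD, n = 3 each), a ratio of 0.483 (adjusted p = 5.48e-05). DIS3, the catalytic subunit of the RNA exosome, stood at 3.42, 3.85 and 3.77 in the parental samples and 2.61, 2.49 and 2.63 in Ov4Cis, a ratio of 0.465. TPT1, an abundant growth-related protein, read 7.97, 7.74 and 7.40 against 6.97, 6.71 and 6.84, a ratio of 0.55 (adjusted p = 3.97e-04). These genes lie at quite different levels, and each was expressed at roughly the same fraction of its parental level in Ov4Cis. Not all landmark genes did so. IRS2 and KLF5 fell further, as given below, and TFDP1 and CUL4A changed by only -0.13 and -0.21 on the log2 scale.

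Genes that fell further than the chromosome as a whole were few. LCP1, the actin-bundling protein plastin 2, stood at 6.72, 6.95 and 6.90 in the parental line and 1.30, 1.32 and 1.61 in Ov4Cis, a ratio of 0.0229 (log2 fold change -5.45, SE 0.18, adjusted p = 6.01e-10). IRS2, an adaptor of the insulin and IGF receptors, was at 3.28, 2.99 and 3.45 against -0.17, 0.73 and 0.13, a ratio of 0.124 (adjusted p = 4.23e-07). LMO7, a LIM-domain protein of cell junctions, went from 3.73 ± 0.12 to 0.97 ± 0.74 (SD, n = 3 each), with replicate 1 of Ov4Cis lowest at 0.17 (ratio 0.148, adjusted p = 8.5e-06). KLF5, an epithelial transcription factor, read 3.04 in all 3 Ov4Cis samples against 4.69, 4.74 and 4.85, a ratio of 0.303. LNX2, an E3 ligase that binds Numb, fell by 2.09 on the log2 scale and was picked after the values were seen.

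In Ov4Cis 19 coding members were not called lower. RASA3, a Ras GTPase-activating protein near the chromosome end, was the only coding member called higher, with a log2 fold change of 0.53. The 18 that passed in neither direction were MPHOSPH8, GJB2, PABPC3, HSPH1, B3GLCT, CSNK1A1L, FOXO1, ITM2B, PCDH9, DZIP1, PCCA, ARGLU1, PCID2, CUL4A, TMCO3, TFDP1, UPF3A and CHAMP1. PABPC3 and CSNK1A1L are intronless copies of genes on other chromosomes. Not passing does not mean unchanged: GJB2 had a log2 fold change of -1.22 (adjusted p = 0.113) and PCCA of -0.79 (adjusted p = 0.0857). Values of GJB2, PCDH9 and PCCA were spread widely within lines: PCDH9, a protocadherin, read 0.58, 2.09 and 3.14 in the parental line alone. ITM2B, a membrane protein processed by furin that lies next to RB1 in the gene order, read 7.10, 6.99 and 7.13 against 6.71, 6.99 and 6.86 (log2 fold change -0.22, adjusted p = 0.207). The 6 of this list from PCID2 to CHAMP1 lie at the far end of the arm.

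**Figure D2:**
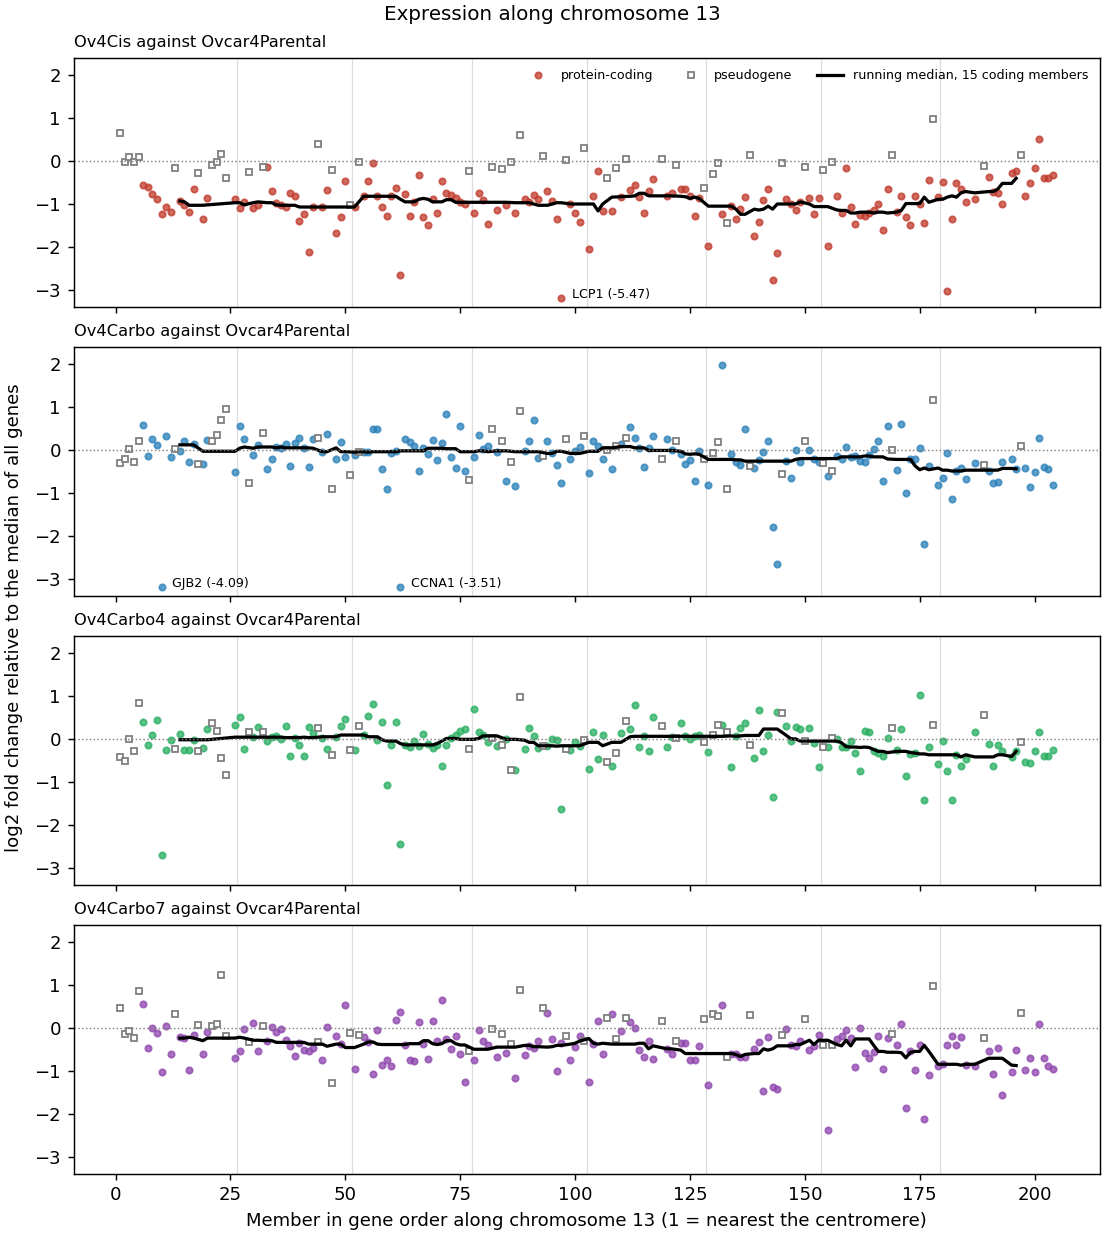
Log2 fold change against the parental line relative to the median of all genes (y axis), with members in their order from the centromere outward (x axis), in 4 panels for the 4 derived lines. Filled circles are protein-coding members, open squares pseudogenes (the 5 other non-coding members are not drawn), and the black line is the running median of 15 coding members; it is below 0 in all 142 windows for Ov4Cis and Ov4Carbo7, and values below the axis are written beside their points.

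Along the chromosome, the coding members were taken in 8 consecutive blocks that follow gene order. In Ov4Cis the shift was -0.91 in the first block, which begins with MPHOSPH8, -1.05 from MIPEP to KATNAL1, -0.88 from HMGB1 to KBTBD6 and -1.01 from KBTBD7 to SUCLA2. It continued at -0.81 in the block that ends with SUGT1, -1.12 from DIAPH3 to SPRY2 and -1.17 from SLITRK5 to LIG4, and was -0.52 from ABHD13 to CHAMP1. So 7 blocks lay between -1.17 and -0.81 and the last block at the far end was the least reduced. The running median over 15 coding members was lowest from VPS36 to KCTD12 (-1.24) and closest to 0 in the last window, from ING1 to CHAMP1 (-0.40).

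By sample, the last block stood at 0.438 ± 0.016 in the parental line, -0.104 ± 0.010 in Ov4Cis, -0.315 ± 0.044 in Ov4Carbo7, -0.072 ± 0.009 in Ov4Carbo and 0.03 ± 0.034 in Ov4Carbo4 (SD, n = 3 each). The block before it stood at 0.405 ± 0.045, -0.742 ± 0.03, -0.174 ± 0.056, 0.19 ± 0.048 and 0.185 ± 0.009 in the same order. At the far end the order of the lines therefore changed, with Ov4Carbo7 below Ov4Cis. Both differences between these lines, in opposite directions in the 2 blocks, exceeded the SDs of their replicates.

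In Ov4Carbo7 the fall was smaller, and largest at the end of the arm. The 8 blocks shifted by -0.23, -0.32, -0.38, -0.43, -0.42, -0.49, -0.56 and -0.78 from the centromere to the end. The running median over 15 coding members did not follow one course: it was -0.24 in the first window, -0.67 from VPS36 to KCTD12, -0.26 from NDFIP2 to UBAC2 and -0.88 in the last window. limma called 98 of the 204 members lower and 8 higher, against 20.3% and 20.3% of all genes. Of the coding members 91 were called lower and 3 higher, against 21.5% and 21.6% of all coding genes. The 12 coding members from TUBGCP3 to CHAMP1, a stretch that was not among the planned blocks, shifted by -0.92 in Ov4Carbo7, with 11 called lower. They shifted by -0.40 in Ov4Cis, -0.44 in Ov4Carbo and -0.35 in Ov4Carbo4, with 5, 7 and 4 called lower. Of all coding genes, 16.8%, 15.5% and 18.9% were called lower in those lines. The parental and Ov4Carbo7 samples lie in different runs of title numbers. A term for that run, estimated from Ov4Carbo alone, left the shift of all members at -0.30 and 48 called, and a difference between the runs otherwise cannot be told apart from the lines.

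TFDP1 and CUL4A illustrate the end of the arm. TFDP1 read 5.03, 5.37 and 5.42 in the parental samples, 4.93, 5.32 and 5.19 in Ov4Cis and 4.22, 4.16 and 4.32 in Ov4Carbo7. The first 2 lines overlapped, and the Ov4Carbo7 samples were the lowest of all 15 (ratio 0.488 against the parental line, log2 fold change -1.04, SE 0.14, adjusted p = 1.03e-04). Its change in Ov4Cis was -0.13 (adjusted p = 0.539). CUL4A, the scaffold of a cullin-RING ubiquitin ligase, read 5.43, 5.57 and 5.62 in the parental line, 5.31, 5.33 and 5.35 in Ov4Cis and 5.05, 4.96 and 5.10 in Ov4Carbo7 (ratio 0.704, adjusted p = 4.22e-04). CDC16, a subunit of the anaphase-promoting complex, was lower in all 4 lines, most in Ov4Carbo7 (ratio 0.617), with ratios of 0.775 in Ov4Cis, 0.772 in Ov4Carbo and 0.78 in Ov4Carbo4.

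In Ov4Carbo and Ov4Carbo4 the blocks of coding members stayed near the median of all genes except toward the end of the arm. The first 5 blocks of coding members shifted by 0.04, 0.06, -0.04, -0.03 and -0.01 in Ov4Carbo, and the last 3 by -0.26, -0.21 and -0.46. In Ov4Carbo4 the first 6 blocks lay between -0.08 and 0.08, and the last 2 at -0.23 and -0.39. The running median over 15 coding members in Ov4Carbo4 was highest from PCDH9 to OBI1 (0.23) and lowest from EFNB2 to PCID2 (-0.42). Calls among all members were 41 lower and 15 higher in Ov4Carbo, against 14.8% and 17% of all genes, and 34 lower and 25 higher in Ov4Carbo4, against 17.5% and 20.6%. Lower calls made up 20.1% of the members in Ov4Carbo and 16.7% in Ov4Carbo4, the latter near the share of all genes. Higher calls made up 7.35% and 12.3%, below the shares of all genes in both lines. Among coding members, 38 were lower and 10 higher in Ov4Carbo (15.5% and 18% of all coding genes), and 29 lower and 17 higher in Ov4Carbo4 (18.9% and 22%). In the last block alone 12 of 20 coding members were lower and 1 higher in Ov4Carbo, and 8 were lower in Ov4Carbo4. Without replicate 1 of Ov4Carbo the shift of all members in that line was -0.05, and with only its own and the parental samples in the model 21 members were called. Without replicate 2 of Ov4Carbo4 or replicate 2 of the parental line, 37 and 38 members were called in Ov4Carbo4 in place of 59.

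The start regions of 3 members are shown because each stands for another part of this pattern: against the parental line CDK8 was called lower in Ov4Cis, EFNB2 in all 4 lines, and TFDP1 in Ov4Carbo and Ov4Carbo7. Each sequence is the 250 bases before the RefSeq start in assembly GRCh38.p14, in the direction of the gene, with every CG dinucleotide in capitals. CDK8 is chr13:26253879-26254128 on the plus strand, EFNB2 chr13:106535663-106535912 on the minus strand and TFDP1 chr13:113584503-113584752 on the plus strand.
CDK8: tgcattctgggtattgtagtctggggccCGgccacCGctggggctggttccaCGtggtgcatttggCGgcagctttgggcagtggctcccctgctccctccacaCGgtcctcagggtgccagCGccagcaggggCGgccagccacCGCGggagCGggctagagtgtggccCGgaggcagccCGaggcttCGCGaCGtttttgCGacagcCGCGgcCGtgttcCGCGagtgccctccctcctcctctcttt
EFNB2: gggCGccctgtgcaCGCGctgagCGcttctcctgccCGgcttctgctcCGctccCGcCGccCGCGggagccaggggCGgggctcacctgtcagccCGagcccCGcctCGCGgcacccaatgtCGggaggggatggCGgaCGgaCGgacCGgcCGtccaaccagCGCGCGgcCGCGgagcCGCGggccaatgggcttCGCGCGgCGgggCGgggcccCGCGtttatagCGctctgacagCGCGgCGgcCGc
TFDP1: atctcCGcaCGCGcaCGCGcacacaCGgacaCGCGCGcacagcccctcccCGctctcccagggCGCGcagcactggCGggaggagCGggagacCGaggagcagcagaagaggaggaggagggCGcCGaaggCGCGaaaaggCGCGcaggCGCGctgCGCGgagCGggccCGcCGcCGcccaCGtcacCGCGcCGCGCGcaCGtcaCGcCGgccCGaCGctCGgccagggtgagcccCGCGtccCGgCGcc
The windows hold 21, 40 and 45 CG dinucleotides, a motif that reads the same on both strands. At least as many are found in 30.2%, 2.16% and 0.589% of the 35116 RefSeq windows of this length, whose median is 11. For 136 of the 156 coding members a window was listed. Taking the richest window of each gene, their median was 25, near the 24 of 8381 coding genes of mean at least 1 counted the same way. The 72 members at or above that median shifted by -0.91 in Ov4Cis and -0.5 in Ov4Carbo7, and the 64 under it by -0.97 and -0.42. CG-rich and CG-poorer starts thus moved by similar amounts in both lines, as a description with no test.

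The listed members were read by role. There are 8 role lists, and the 76 members in none of them are the 43 pseudogenes, the 5 other non-coding genes and 28 coding members. Those 76 shifted by -0.29 in Ov4Cis (32 lower, 5 higher) and -0.18 in Ov4Carbo7 (20 and 5), and the 28 coding members among them by -0.86 (25 lower) and -0.3 (13 lower). Genes of the cell cycle, replication and mitosis numbered 19 members. In Ov4Cis 17 were lower (shift -0.96), in Ov4Carbo7 16 lower and 1 higher (-0.76), in Ov4Carbo 10 and 1 (-0.40) and in Ov4Carbo4 6 and 3 (-0.26). Of all genes, 15.6% were lower in Ov4Cis, 20.3% in Ov4Carbo7, 14.8% in Ov4Carbo and 17.5% in Ov4Carbo4. In the same order 17.4%, 20.3%, 17% and 20.6% were higher, and these shares stand behind each count by role. The listed members are all coding. Of the 156 coding members of the chromosome, 87.8%, 58.3%, 24.4% and 18.6% were lower in that order. A role count near these shares therefore says no more than the chromosome does. RB1 was at 3.87, 4.17 and 4.06 in Ov4Carbo7, between the Ov4Cis and parental samples (ratio 0.655, adjusted p = 0.00144), while its ratio in Ov4Carbo was 0.892 and in Ov4Carbo4 1.11. RFC3, a subunit of the clamp loader, fell to 3.26 ± 0.15 in Ov4Cis and 3.18 ± 0.13 in Ov4Carbo7 from 4.06 ± 0.03 (SD, n = 3 each). LATS2, a kinase of the Hippo pathway, fell in Ov4Cis (ratio 0.533) and had a ratio of 0.86 in Ov4Carbo7 (adjusted p = 0.0804). LIG4, the ligase of DNA end joining, was lower in all 4 lines, at ratios of 0.568, 0.58, 0.688 and 0.545.

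CCNA1, cyclin A1, departed from its neighbours. It read 3.30, 3.27 and 2.98 in the parental line and 3.52, 3.32 and 3.81 in Ov4Carbo7. In Ov4Cis it read -0.72, 1.34 and 1.02, in Ov4Carbo 1.42, -0.55 and -1.77, and in Ov4Carbo4 1.17, 0.16 and 1.05. Those 3 lines lay below every parental and Ov4Carbo7 sample, with ratios to the parental line of 0.161, 0.0896 and 0.191 (adjusted p = 0.00861, 0.00204 and 0.0141).

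Among 20 genes of ubiquitin and protein turnover, 19 were lower in Ov4Cis (shift -1.0) and 13 in Ov4Carbo7 (-0.42). POMP, the proteasome maturation factor, fell in Ov4Cis (ratio 0.631, adjusted p = 0.00613) and read 4.89 ± 0.18 in Ov4Carbo7 against 4.87 ± 0.10 in the parental line (SD, n = 3 each). KCTD12, in this list for its family but known as an auxiliary subunit of GABA-B receptors, read 1.42, 2.52 and 3.38 in the parental line, 0.58, -0.38 and -0.77 in Ov4Carbo and 3.46, 2.53 and 3.38 in Ov4Carbo4. Its parental samples spread widely, so Ov4Carbo4 overlapped them and Ov4Carbo lay below them.

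RNA synthesis and processing had 22 members, of which 19 were lower in Ov4Cis (-0.92) and 18 in Ov4Carbo7 (-0.56). In Ov4Carbo 1 was lower and 2 were higher, against 14.8% and 17% of all genes, and in Ov4Carbo4 2 and 1, against 17.5% and 20.6%. DIS3 was lower in Ov4Carbo7 (ratio 0.63, adjusted p = 0.00299), and CDK8 had a ratio of 0.818 there (adjusted p = 0.0979) and was higher in Ov4Carbo4 (1.28, adjusted p = 0.0473). HSPH1, a heat shock protein and co-chaperone, was the member not called among the 4 genes of translation and folding in Ov4Cis, where 3 were lower (-0.85). In Ov4Carbo7 1 of those 4 was lower, and TPT1 had a ratio of 0.805 (adjusted p = 0.0931).

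Transcription factors and chromatin proteins were the list whose medians lay furthest apart between Ov4Cis and Ov4Carbo7, a difference that was not tested. In Ov4Cis 8 of 10 were lower (-0.88), and in Ov4Carbo7 3 were lower and 1 higher (-0.16). The member called higher in Ov4Carbo7 was FOXO1, a forkhead factor held in check by insulin signalling: it read 1.93, 1.78 and 1.70 in the parental line, 2.41, 2.61 and 2.32 in Ov4Carbo7 and 1.09, 1.41 and 1.19 in Ov4Carbo4. Neither clone overlapped the parental samples, on opposite sides (ratios of 1.57 and 0.672, adjusted p = 0.0273 and 0.049). HMGB1, an abundant chromatin protein, fell in Ov4Cis and Ov4Carbo7 by nearly the same ratio, 0.481 and 0.517, and read 5.81, 6.39 and 5.72 in Ov4Carbo. KLF5 was lower in all 4 lines, at ratios of 0.303, 0.757, 0.761 and 0.711.

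Of 15 genes of mitochondria and metabolism, 14 were lower in Ov4Cis (-0.81). In Ov4Carbo7 5 were lower and 1 higher (-0.22), and in Ov4Carbo 2 lower and 3 higher (0.14). SUCLA2, a subunit of succinyl-CoA synthetase, read 4.01, 3.90 and 3.84 in the parental line and 2.55, 2.49 and 2.55 in Ov4Cis (ratio 0.383, adjusted p = 1.51e-07), with 3.72 ± 0.07 (SD, n = 3) in Ov4Carbo7. PCCA, a subunit of propionyl-CoA carboxylase, was the member not called: its Ov4Cis samples read 2.20, 1.05 and 1.35 against 2.75, 2.25 and 1.98, so they overlapped.

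Secretory pathway and transport held 20 members, with 17 lower in Ov4Cis (-1.12) and 12 in Ov4Carbo7 (-0.49). IPO5, a nuclear import receptor, fell in both, at ratios of 0.438 and 0.614. TMTC4, an O-mannosyltransferase of the endoplasmic reticulum, was lower in all 4 lines and lowest in Ov4Carbo7, where it read 1.44, 1.73 and 1.38 against 3.44, 3.27 and 3.42 (ratio 0.275, adjusted p = 9.88e-06). RAB20, a small GTPase, fell in Ov4Cis, Ov4Carbo and Ov4Carbo4 at ratios of 0.4, 0.459 and 0.387, and read 1.79, 1.68 and 2.07 in Ov4Carbo7 against 2.28, 1.92 and 1.92. POGLUT2, a protein O-glucosyltransferase, was higher in Ov4Carbo4 (2.34, 2.12 and 2.05 against 1.12, 1.13 and 1.01; ratio 2.12, adjusted p = 2.28e-04) and lower in Ov4Cis (ratio 0.51).

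Signalling, adhesion and cytoskeleton held 18 members, 15 lower and 1 higher in Ov4Cis (-1.01) and 10 lower in Ov4Carbo7 (-0.56). EFNB2, ephrin-B2, a membrane ligand of Eph receptors, read 4.49, 5.20 and 5.45 in the parental line. It read 3.10, 4.0 and 3.75 in Ov4Cis, 3.61, 2.58 and 2.47 in Ov4Carbo, 3.73, 3.51 and 3.74 in Ov4Carbo4 and 2.70, 3.10 and 2.96 in Ov4Carbo7. Every derived sample was below every parental sample, with ratios of 0.371, 0.224, 0.383 and 0.23. STARD13, a GTPase-activating protein, was lower in all 4 lines, at ratios of 0.422, 0.541, 0.493 and 0.589. LCP1 was also lower in Ov4Carbo4 (5.38, 5.25 and 5.21; ratio 0.335, adjusted p = 2.93e-05), far above its level in Ov4Cis.

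**Figure D3:**
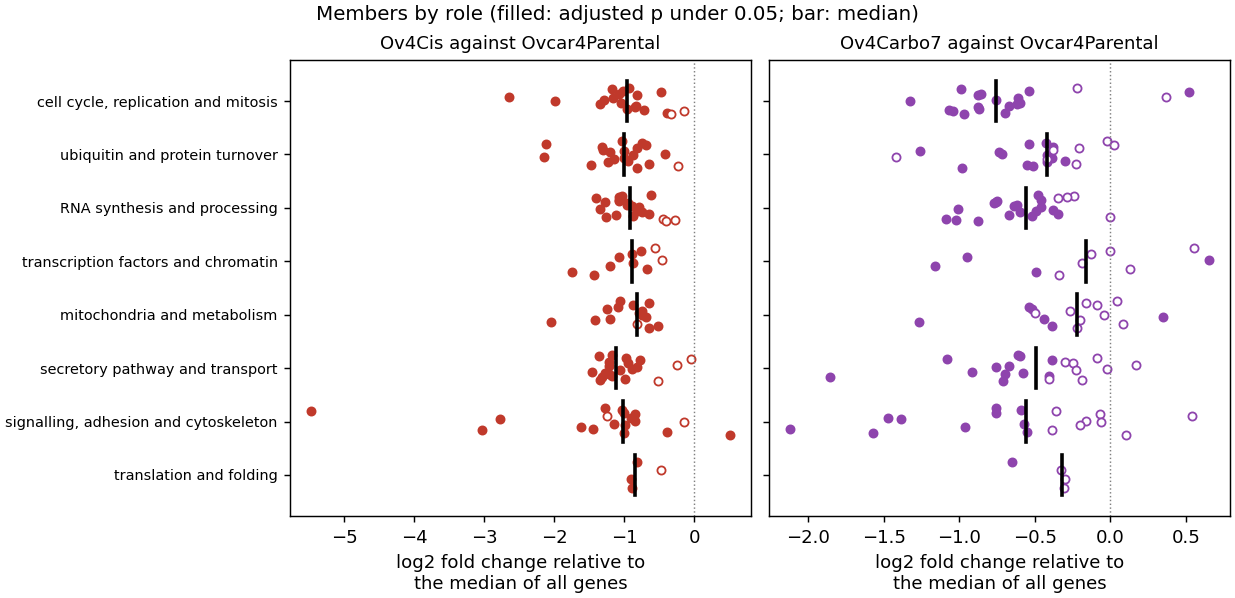
Log2 fold change of each listed member relative to all genes (x axis) by role (y axis; the 76 members in no list are not drawn), in Ov4Cis on the left and Ov4Carbo7 on the right, on separate scales. Filled points passed an adjusted p under 0.05, open points did not, and black bars are medians: the medians of the 8 roles lie between -1.12 and -0.81 in Ov4Cis, and between -0.76 and -0.16 in Ov4Carbo7.

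GJB2 and SLITRK5, which stand in none of the role lists, are named for the size of their changes. GJB2, connexin 26, read 4.36, 5.97 and 4.87 in the parental line, 2.05, 0.70 and 0.28 in Ov4Carbo and 2.68, 2.17 and 2.41 in Ov4Carbo4 (ratios of 0.0599 and 0.159, adjusted p = 1.91e-04 and 0.00258). In Ov4Carbo7 it read 3.98, 3.73 and 4.40, which overlaps the parental samples. SLITRK5, a neuronal adhesion protein, read 2.16, 2.47 and 2.57 in the parental line and -0.15, 0.41 and -0.24 in Ov4Carbo7 (ratio 0.19, adjusted p = 3.15e-05), and its ratio in Ov4Cis was 0.259.

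Called lower in all 4 lines were 12 members, 5.88% of the group, against 2.45% of all genes, among them USP12, STARD13, TSC22D1, KLF5, LMO7, TMTC4, EFNB2, LIG4, ING1, TUBGCP3 and CDC16. Of these, 6 lie outward of LMO7 in the gene order. Called higher in all 4 was 1 member (0.49%, against 3.63% of all genes), the pseudogene SMARCE1P5, with ratios of 1.55, 1.91, 2.03 and 1.83. The 4 comparisons share their control samples, so these counts are not independent of each other.

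**Figure D4:**
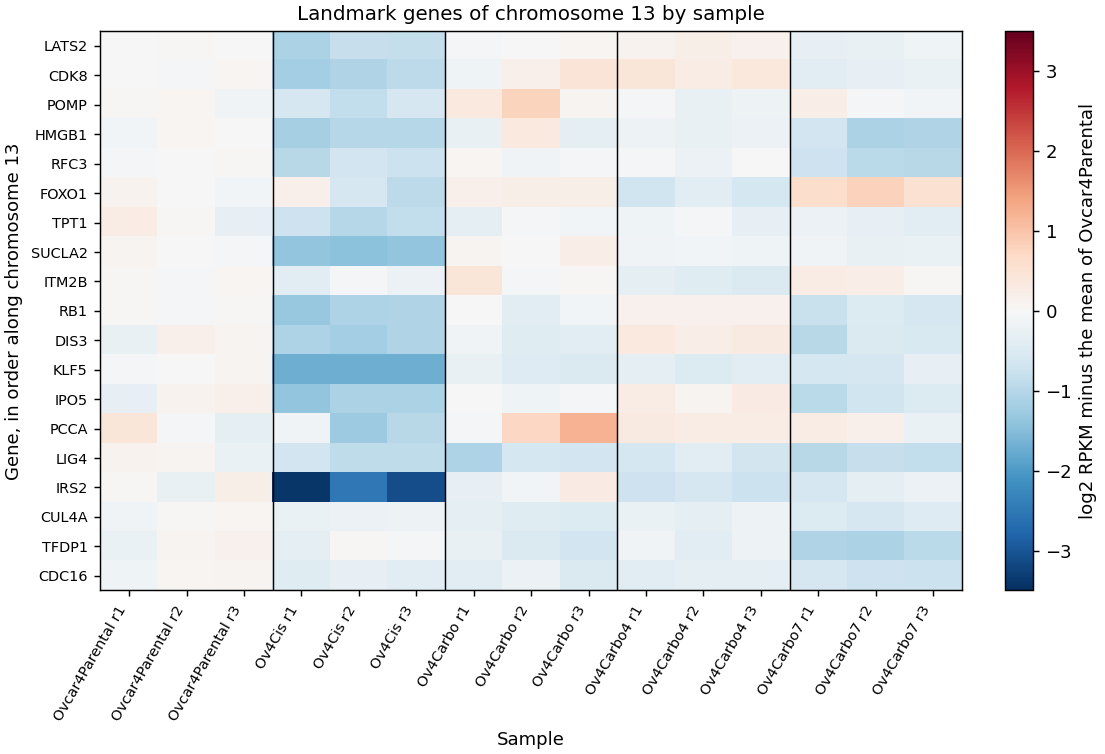
Level of 19 landmark genes (rows, in order from the centromere outward) in the 15 samples (columns), as log2 RPKM minus the mean of the 3 parental samples; red is above and blue below that mean. The Ov4Cis columns are blue for most rows, with IRS2 at -3.01 and FOXO1, ITM2B and TFDP1 near 0, and in Ov4Carbo7 FOXO1 is red while HMGB1, RFC3 and TFDP1 are blue.

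The pseudogene members that passed the test mostly differed in the same direction as the genes they are named for. For 41 of the 43, the gene named by the symbol without its closing P and number was in the table, and in 1 case, ZDHHC20, it lay on chromosome 13. ZDHHC20P4 fell in Ov4Cis by 1.43 on the log2 scale (adjusted p = 0.00391), and ZDHHC20, a palmitoyltransferase, by 1.34 (adjusted p = 5.1e-07). In Ov4Cis limma called 3 pseudogene members lower and 5 higher, against 8.91% and 6.68% of all pseudogenes. All 8 had a named parent, which differed in the same direction in 8 of 8 and was called in that direction in 6. Over all 41 pairs, called or not, the sign was shared in 35, and NUS1P2 (-0.38, adjusted p = 0.304) stood beside NUS1 at 0.17 (adjusted p = 0.203). PRDX2P1 fell by 1.01 and PRDX2, on chromosome 19, by 0.93. RPL13AP25 fell by 0.60 and RPL13A, also on chromosome 19, by 0.90. The largest rises were those of ATP5MC1P5 (1.00), TERF1P5 (0.67) and SMARCE1P5 (0.63), whose parents ATP5MC1 and SMARCE1 on chromosome 17 and TERF1 on chromosome 8 rose by 0.61, 0.41 and 0.56. Chromosome 17 as a whole had a shift of 0.33 in Ov4Cis.

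In Ov4Carbo 3 pseudogene members were lower and 5 higher, against 12% and 9.17% of all pseudogenes. The counts were 4 and 8 in Ov4Carbo4 (9.61% and 12.3%) and 4 and 5 in Ov4Carbo7 (13.4% and 12.7%). Of those with a named parent, the parent had the same sign in 8 of 8 in Ov4Carbo, 10 of 11 in Ov4Carbo4 and 9 of 9 in Ov4Carbo7, and was itself called in that direction in 5, 8 and 8. Over all 41 pairs the sign was shared in 33, 30 and 35. FTH1P7, named for the ferritin heavy chain, rose in Ov4Carbo7 by 1.23 and FTH1 on chromosome 11 by 0.86. Near-identical copies can share reads, and how the authors' counting treated such reads is not given in the sources used here, so values of pseudogene members are uncertain. The parents were looked up after the values were seen, and no test of the likeness was made.

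Of the other non-coding members, DLEU1 fell in Ov4Cis and Ov4Carbo7, by 0.69 and 0.65 on the log2 scale. MCF2L-AS1 fell by 0.78 and 1.54 in the same lines, with MCF2L, the gene on the opposite strand, at -0.98 and -1.57. Use of strand in the counting is not stated, so reads of this pair cannot be told apart.

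The clones were set against the line they were grown from. Ov4Carbo4 had a shift of 0.04 against Ov4Carbo, with 27 members lower and 38 higher, against 20.1% and 22.5% of all genes. Replicates 2 and 3 of Ov4Carbo lie in the other run of title numbers from both clones. With a term for the run the shift was 0.10 and 31 members were called in place of 65. With only these 2 groups in the model 39 were called. Without replicate 1 of Ov4Carbo the shift was 0.00, and without replicate 1 of Ov4Carbo4 0.08. The main counts are 13.2% and 18.6% of the members, both below the share of all genes. In coding blocks the shift lay between -0.05, from KBTBD7 to SUCLA2, and 0.27, from DIAPH3 to SPRY2. In the latter block 2 of 19 coding members were lower and 8 higher. KCTD12 rose by 3.31 (ratio 9.94, adjusted p = 7.24e-04), and the pseudogenes DHX9P1 and ZDHHC20P4 by 1.19 and 1.09. The largest falls were those of a long non-coding RNA without a symbol, ENSG00000262198 (-2.03), NUS1P2 (-1.77) and PCDH9 (-1.65). ENSG00000262198 was spread widely in Ov4Carbo, at 3.29, 4.69 and 2.32.

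Ov4Carbo7 had a shift of -0.29 against Ov4Carbo, with 83 members lower and 9 higher (18.7% and 16.9% of all genes). With the run term the shift was -0.23 and 37 members were called in place of 92, and with only these 2 groups in the model 51. In coding blocks the shift lay between -0.42, from HMGB1 to KBTBD6, and -0.21, from ABHD13 to CHAMP1, so it was not larger at the end of the arm. SLITRK5 fell by 1.82 and B3GLCT, a glucosyltransferase, by 1.59 on the log2 scale. CCNA1 rose by 3.85 (ratio 14.4, adjusted p = 9.42e-04), GJB2 by 3.03 (ratio 8.18) and RAB20 by 0.93.

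Between the clones, Ov4Carbo7 was lower than Ov4Carbo4 by a shift of -0.30, with 99 members lower and 15 higher (27.6% and 23.4% of all genes). RB1 differed by -0.76 (ratio 0.592, adjusted p = 2.3e-04), RFC3 by -0.79, DIS3 by -0.97 and IPO5 by -0.91. Each of these genes had non-overlapping samples in the 2 clones. The largest falls were SLITRK5 (-2.26), KCTD12 (-2.10) and B3GLCT (-1.94), and the largest rises CCNA1 (2.76), FTH1P7 (1.64) and GJB2 (1.62). All samples of both clones belong to the same run of title numbers.

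Set beside the other chromosomes, chromosome 13 had the lowest shift of 23 in Ov4Cis, where chromosome 6 followed at -0.22, and in Ov4Carbo7, where chromosome 21 followed at -0.35. In Ov4Carbo it ranked 4 from the lowest, below which lay chromosomes 14 (-0.23), 22 (-0.16) and 7 (-0.14). In Ov4Carbo4 it ranked 7, and chromosome 3 was lowest at -0.33. The Ov4Cis value stood apart from all other chromosomes of that line, and the Ov4Carbo7 value lay close to the next. Because the members were chosen with results of these data known, these ranks are a description and no test.

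**Figure D5:**
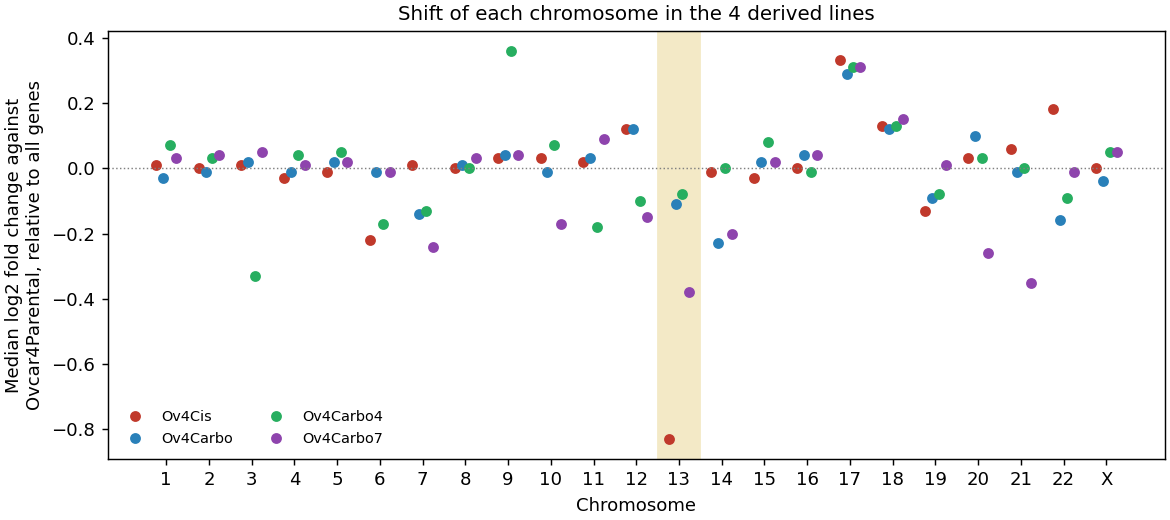
Median log2 fold change against the parental line of the genes of each chromosome, relative to all genes of mean at least 1 (y axis), for chromosomes 1 to 22 and X (x axis) and the 4 derived lines (colours); chromosome 13 is shaded. Chromosome 13 in Ov4Cis is at -0.83, and the other 22 chromosomes of that line lie at -0.22 or higher.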

How the data were processed

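Per the name of the deposited table, the authors made log2 RPKM values with cqn, a conditional quantile method that takes out effects of gene length and GC content. That name also mentions a threshold without giving its rule. The submitters' processing notes name BWA 0.7.15-r1140, HTSeq and build hg19 (GRCh37), without saying how they were used. RNA was polyA-captured, per the labels. Read depth is unknown and counting error cannot be given. Total RNA differences between lines cannot be measured after this normalization. The log base was checked: base 2 gave 1.55 to 1.65 times the total RPKM implies, base e 9.03 to 9.97. The table has 0 missing values and 0 identical sample pairs.

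GENCODE v29 (GRCh38) placed 16499 genes and gave chromosome and order only. A linear model with 1 coefficient per line was fitted to all 16604 genes and 15 samples with limma 3.58.1 in R 4.3.3 (two-sided, Benjamini-Hochberg over all genes, called at an adjusted p under 0.05, in 7 comparisons), and was tested on simulated data. Python 3.11.15 made the tables. Members and lists were chosen with earlier results of these data known. Some single genes are not reported here.

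Genes were named by rule: 20 landmarks, of which ZIC2 did not pass the level, the 3 largest called rises and falls per comparison with non-overlapping samples and a higher mean of at least 1, and up to 4 called alike in all 4 lines. Sample titles carry numbers in 2 runs, 1 holding 7 samples (Ov4Carbo replicate 1, Ov4Carbo4 and Ov4Carbo7) and the other 8. No label describes the runs as batches.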

Additional observations from a re-analysis of the deposited data

Results flagged for a closer look

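For 3 named members the clones moved in opposite directions against the parental line, each change passing the test, and the clones differed from each other by limma. The pseudogene TERF1P5 was higher in Ov4Carbo7 by 0.45 and lower in Ov4Carbo4 by 0.38 on the log2 scale, a difference of 0.83 (adjusted p = 1.09e-04). TERF1 on chromosome 8, the gene it is named for, changed by 0.42 and -0.44 in these clones (limma adjusted p = 0.0227 and 0.0194). B3GLCT was lower in Ov4Carbo7 (-1.08) and higher in Ov4Carbo4 (0.87), a difference of -1.94 (adjusted p = 6.26e-06). FOXO1 was higher in Ov4Carbo7 (0.65) and lower in Ov4Carbo4 (-0.57), a difference of 1.22 (adjusted p = 4.39e-04). The samples of the clones did not overlap in any of the 3.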

How the results depend on the processing

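The shift kept its sign in Ov4Cis and Ov4Carbo7 under every alternative run. On the log2(RPKM + 1) scale it was -0.68 in Ov4Cis. With protein-coding members and genes only, an alternative added after seeing the data, it was -0.95 in Ov4Cis, -0.45 in Ov4Carbo7 and -0.38 between the clones. With a term for the run of title numbers it was -0.05 in Ov4Carbo, -0.01 in Ov4Carbo4, -0.30 in Ov4Carbo7 (48 called), 0.10 for Ov4Carbo4 against Ov4Carbo (31 called) and -0.23 for Ov4Carbo7 against Ov4Carbo (37 called). The cause of these changes was not tested. Counts of called members are given in the order Ov4Cis, Ov4Carbo, Ov4Carbo4 and Ov4Carbo7 against the parental line, Ov4Carbo4 and Ov4Carbo7 against Ov4Carbo, Ov4Carbo7 against Ov4Carbo4, and the F-test. They were 150, 56, 59, 106, 65, 92, 114 and 181. With members of mean at least 3, fewer by construction, they were 71, 35, 26, 59, 33, 47, 61 and 93. With a log2 fold change of 1 or more in size required too, the first 7 were 68, 8, 10, 20, 8, 15 and 24. At an adjusted p under 0.01, 32 were called in Ov4Carbo, 22 in Ov4Carbo4, 37 for Ov4Carbo4 against Ov4Carbo and 59 for Ov4Carbo7 against Ov4Carbo. With only the groups compared in the model, 21 were called in Ov4Carbo, and 39 and 51 for Ov4Carbo4 and Ov4Carbo7 against Ov4Carbo.

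Leaving out each sample in turn gave shifts from -0.86 to -0.82 in Ov4Cis (142 to 153 called), -0.13 to -0.05 in Ov4Carbo (40 to 75), -0.10 to -0.06 in Ov4Carbo4 (37 to 69) and -0.38 to -0.36 in Ov4Carbo7 (87 to 117). Against Ov4Carbo they were 0.00 to 0.08 in Ov4Carbo4 (49 to 77) and -0.31 to -0.24 in Ov4Carbo7 (69 to 108), and between the clones -0.33 to -0.30 (100 to 127). The F-test called 175 to 187. The lowest Ov4Carbo4 counts came without its replicate 2 (37) and without parental replicate 2 (38), and the Ov4Carbo shift of -0.05 without its replicate 1. Replicate numbers did not pair the samples. Deviations of same-numbered samples of different lines correlated between -0.497 and 0.535, over 0.1 in 12 of 30 pairs. Those of different-numbered samples of different lines correlated between -0.51 and 0.61, over 0.1 in 26 of 60 pairs. Of the 15 samples, 6 were closest to their own number. With the replicate number as a block, 150, 49, 49, 99, 61, 84, 110 and 179 members were called in the order above. Of the 209 alternative values beside those that leave out a sample, 175 stayed within 1 SD or, for counts, within 1.5 times the main value. The unknown depth limits what can be said of single members near the lower level.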
